A study of Mus musculus with 12 samples.

Results

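Rab GTPases are small G proteins that mark the membranes of a cell and recruit the factors that move, tether and fuse its vesicles. A Rab is loaded with GTP on its own membrane by an exchange factor, binds effectors there and is switched off by a GTPase-activating protein, after which GDP dissociation inhibitor (GDI) draws it from the membrane by its lipid-modified tail. Each compartment has its own Rabs, and the same proteins carry receptors, GPCRs included, into the cell, back to the surface or on to the lysosome. Phagocytes such as microglia use them to mature phagosomes, and neurons and endocrine cells use them in regulated secretion.

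The genes described here are the mouse genes whose symbol is Rab followed by a number and, for some, a letter. That rule leaves out Rab3a, Rab3b, Rab3c and Rab3d, the Rabs of synaptic and secretory vesicles, and it uses no measured value. Of 55 such symbols, 51 had a target on the array, among 25128 genes and targets in all. Rab26, Rab36, Rab42 and Rab44 are not analysed here. Each of the 51 genes was represented by 1 target with 3 probes, and all 51 entered every comparison, since no filter on low values was applied. Probe sequences were not used here, and cross-hybridization between close relatives such as Rab11a and Rab11b was not tested.

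The levels come from 12 single-color NimbleGen arrays, 1 for each of 4 plates of 3 untreated mouse lines. AtT20 is a neuroendocrine line from a pituitary tumor, BV2 is an immortalized microglial line that was kept under conditions favoring the resting state, and N18 is a neuroblastoma line. All were grown in the same medium with serum, and total RNA was taken from each plate. The 4 plates of a line are separate cultures of that line, so the tests measure the spread between plates and not that between isolates. Plates are bulk samples, in which fewer cells of a kind and less RNA per cell cannot be told apart.

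The microglia and neuroblastoma markers went with the labels of BV2 and N18, but the corticotroph markers did not go with that of AtT20. The measure was the threshold of the study, which calls a gene expressed where its mean level exceeds that of 10 seminal proteins by 2 SD of those proteins. Of 11 microglia markers, 10 were above the threshold in BV2, 3 in N18 and 1 in AtT20. Of 14 neuroblastoma markers, 12 were above it in N18, 5 in BV2 and 6 in AtT20. Of 7 corticotroph markers only Pitx1 was above it on the plates labelled AtT20, against 2 of 7 in BV2 and 4 of 7 in N18. Pomc, the hormone precursor that defines these cells, was below it on the plates labelled AtT20. Of 8 fibroblast markers, 5 were above it in AtT20, 2 in BV2 and 4 in N18. Of 6 epithelium markers, 2 were above it in AtT20, 4 in BV2 and 5 in N18, so markers of other cell types also passed in BV2 and N18. The middle of the intensities also lay higher on the plates labelled AtT20, with array medians of 10.85 to 11.5 on the log2 scale against 9.9 to 10.28 in BV2 and 10.1 to 10.54 in N18, and their interquartile range was 0.38 to 0.78 against at least 1.28 on every other array. The part that these differences play in the comparisons with AtT20 was not tested. A direction against AtT20 is therefore given only where quantile normalization, no normalization and levels relative to the seminal proteins had the same sign, or with the differing sign beside it.

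The first question was which Rab messages were above the threshold in each line. Of 10 genes listed as markers of all cells, 9 were above it in AtT20, in BV2 and in N18. The other, Rplp0, was below it in each line. Its levels relative to the seminal proteins were -0.2 in AtT20, 0.41 in BV2 and 0.18 in N18. A level below the threshold therefore does not show that a message was absent. The plates labelled AtT20 had 21 of the 51 Rab genes above the threshold (41.2%), where 35% of all genes and targets were above it. BV2 had 35 (68.6%, against 53.3% of all), and N18 had 40 (78.4%, against 55.4%). The thresholds, as log2 levels relative to the seminal proteins, were 0.37 ± 0.11, 0.56 ± 0.15 and 0.74 ± 0.1 (SD, n = 4 plates) in AtT20, BV2 and N18. In AtT20 the count rested on few probes: 8 genes had at least 2 probes above the threshold, against 33 in BV2 and 35 in N18. The share of all genes and targets that met this rule is not given here, so the drop cannot be read as particular to the Rab genes.

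A group of 18 genes were above the threshold in all 3 lines. They cover the main routes of traffic: Rab1a, Rab1b, Rab2a, Rab6a and Rab6b of the ER and Golgi, Rab5b of the early endosome, Rab4a, Rab4b, Rab8a, Rab11b and Rab14 of recycling and exocytosis, and Rab7, Rab24, Rab29 and Rab34 of the late endosome, lysosome and autophagy. Rab23 and Rab28, which act at cilia, and Rab27a, which docks granules and lysosome-related organelles, were the others. The places of Rab8a and Rab28 in AtT20 and of Rab29 in N18 were lost under each of the 6 alternative rules for the threshold. Those of Rab6a, Rab11b and Rab23 in AtT20 were lost under 4. The share of all genes and targets with each pattern over the 3 lines is not given here. A further 14 genes were above the threshold in BV2 and N18 but not in AtT20, namely Rab2b, Rab5a, Rab5c, Rab7b, Rab8b, Rab9, Rab10, Rab12, Rab18, Rab21, Rab22a, Rab31, Rab35 and Rab40c. Of these, Rab7b had an AtT20 mean of 0.362 against a threshold of 0.366. In N18, 1 of its 3 probes was above the threshold, and its place was lost under 5 of the 6 alternative rules. Its difference of N18 from AtT20 was -0.52 after quantile normalization, -0.85 without normalization and 0.54 relative to the seminal proteins. Rab13, a Rab of cell junctions, was above the threshold in AtT20 and N18. The 6 genes Rab9b, Rab25, Rab27b, Rab39, Rab40b and Rab43 were below it in every line, of which Rab25 is known from epithelia. Rab25 had an AtT20 mean of 0.349 against 0.366, with 2 AtT20 plates above the threshold of the plate.

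The early endosome showed the widest gap in these counts. All 6 of its Rab genes were above the threshold in BV2 and in N18, and 1 of them, Rab5b, in AtT20. Of 12 genes of the ER and Golgi, 6 were above it in AtT20, 8 in BV2 and 9 in N18. Of 14 genes of recycling and exocytosis the counts were 6, 10 and 12 in the same order, and of 10 genes of the late endosome, lysosome and autophagy they were 4, 7 and 7. Of 5 genes of secretory granules and lysosome-related organelles, 2 were above it in AtT20, 1 in BV2 and 3 in N18. The gap of the early endosome between BV2 and AtT20 depended on the scale. Without normalization the difference of BV2 from AtT20 was -0.59 for Rab5a, -0.48 for Rab5b and -0.04 for Rab22a. It was 1.13 for Rab21, 1.68 for Rab5c and 2.88 for Rab31. After quantile normalization Rab5a (0.21) and Rab5b (-0.19) did not pass the test between these lines. All 6 genes were higher in N18 than in AtT20 on the 3 scales.

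**Figure D1:**
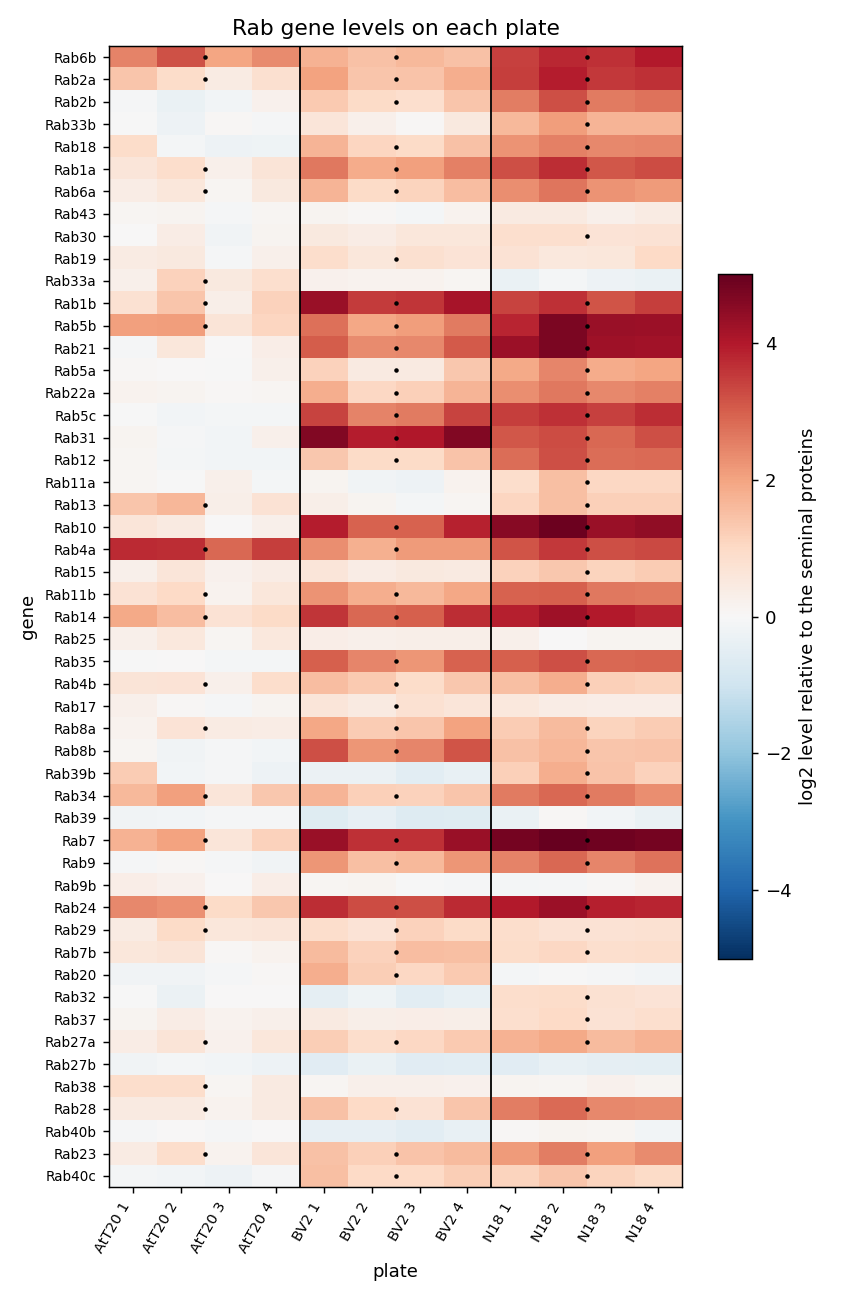
Level of each of the 51 Rab genes (rows, by place of action) on each of the 12 plates (columns), as color on a log2 scale relative to the seminal proteins (their mean on each plate), where a dot marks a line in which the mean of the gene was above the threshold. Colors are to be compared along a row, and the 4 AtT20 columns hold dots for 21 genes against 35 in BV2 and 40 in N18.

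In all, 12 genes were above the threshold in 1 line only, and several of them stood close to it. Rab20, which acts in the maturation of phagosomes, was one of 3 in BV2. Its levels relative to the seminal proteins were 1.80, 1.23, 1.04 and 1.32 in BV2, -0.11, -0.03, -0.06 and -0.15 in N18, and -0.19, -0.17, -0.07 and 0.04 in AtT20. No plate of another line came near those of BV2, and all 3 probes were above the threshold there. Rab17, known from epithelia, stood at 0.62, 0.44, 0.78 and 0.62 in BV2, at 0.52, 0.39, 0.32 and 0.33 in N18, and at 0.25, 0.05, -0.07 and 0.15 in AtT20. Rab19 stood at 0.88, 0.58, 0.79 and 0.70 in BV2, at 0.71, 0.53, 0.55 and 0.99 in N18, and at 0.40, 0.50, -0.06 and 0.24 in AtT20. For both genes the BV2 and N18 plates overlapped on this scale, and the BV2 means of 0.61 and 0.74 passed a threshold that is lower than that of N18.

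The genes above the threshold in N18 alone numbered 7. Rab33b, a Golgi Rab that binds a factor of autophagosome formation, stood at 1.62, 2.10, 1.70 and 1.68 in N18, at 0.61, 0.25, 0.04 and 0.49 in BV2, and at -0.03, -0.26, 0.06 and -0.04 in AtT20. Rab11a, the ubiquitous Rab of the recycling endosome, stood at 0.87, 1.52, 1.04 and 1.03 in N18, at 0.12, -0.17, -0.26 and 0.18 in BV2, and at 0.10, -0.02, 0.25 and -0.09 in AtT20. In both genes every N18 plate was above every plate of the other lines on this scale, and all 3 probes were above the threshold in N18. Against AtT20, however, the N18 plates of Rab11a overlapped after quantile normalization (a difference of 0.11, adjusted p = 0.637), and the difference was -0.34 without normalization. Rab11b, the close relative of Rab11a, was above the threshold in all 3 lines.

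Rab39b, known from neurons and as a gene of X-linked intellectual disability, stood at 1.19, 1.83, 1.44 and 1.17 in N18 and at -0.30, -0.31, -0.53 and -0.36 in BV2. In AtT20 it stood at 1.28 on plate 1 and at -0.12, -0.05 and -0.24 on the others, so 1 AtT20 plate reached the N18 levels. Only 1 of its 3 probes was above the threshold in N18. Rab32, of melanosomes and mitochondria, stood at 0.86, 0.93, 0.78 and 0.69 in N18, at -0.44, -0.20, -0.52 and -0.37 in BV2, and at -0.03, -0.28, 0.02 and 0.03 in AtT20. Its N18 plates lay apart from all others on this scale but close to the threshold. After quantile normalization the N18 and AtT20 plates of Rab32 overlapped (a difference of 0.25, adjusted p = 0.0756), and without normalization the difference was -0.51.

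Rab15, an endosomal Rab first described in brain, stood at 1.15, 1.34, 1.10 and 1.25 in N18, at 0.59, 0.36, 0.50 and 0.44 in BV2, and at 0.27, 0.60, 0.20 and 0.39 in AtT20. The AtT20 mean of Rab15, 0.365, was just under the threshold of 0.366. It passed the threshold in AtT20 when plate 1, 3 or 4 of that line was left out. Rab37, a Rab of secretory granules, stood at 0.85, 0.98, 0.72 and 0.84 in N18, at 0.45, 0.31, 0.34 and 0.28 in BV2, and at 0.12, 0.36, 0.18 and 0.24 in AtT20. Rab30, a Golgi Rab, stood at 0.83, 0.84, 0.68 and 0.72 in N18, at 0.49, 0.39, 0.58 and 0.55 in BV2, and at 0.03, 0.36, -0.16 and 0.15 in AtT20. In each of the 3 genes the N18 plates were the highest on this scale, and Rab30, with an N18 mean of 0.77 against a threshold of 0.74, lost its place under each of the 6 alternative rules. After quantile normalization its N18 and BV2 plates overlapped, with a difference of -0.01. Against AtT20 the order turned with the scale: the difference of N18 from AtT20 was -0.45 for Rab15, -0.46 for Rab37 and -0.03 for Rab30 after quantile normalization, and -0.55, -0.77 and -0.72 without normalization.

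The 2 genes of AtT20 alone were Rab33a and Rab38. Rab33a stood at 0.25, 1.14, 0.47 and 0.85 in AtT20, at 0.20, 0.18, 0.18 and 0.10 in BV2, and at -0.33, -0.11, -0.24 and -0.35 in N18. Rab38, the melanosomal relative of Rab32, stood at 0.86, 0.88, 0.08 and 0.44 in AtT20, at 0.08, 0.26, 0.27 and 0.23 in BV2, and at 0.12, 0.10, 0.20 and 0.12 in N18. Each had 1 of 3 probes above the threshold in AtT20, and for Rab38 the AtT20 and BV2 plates overlapped.

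**Figure D2:**
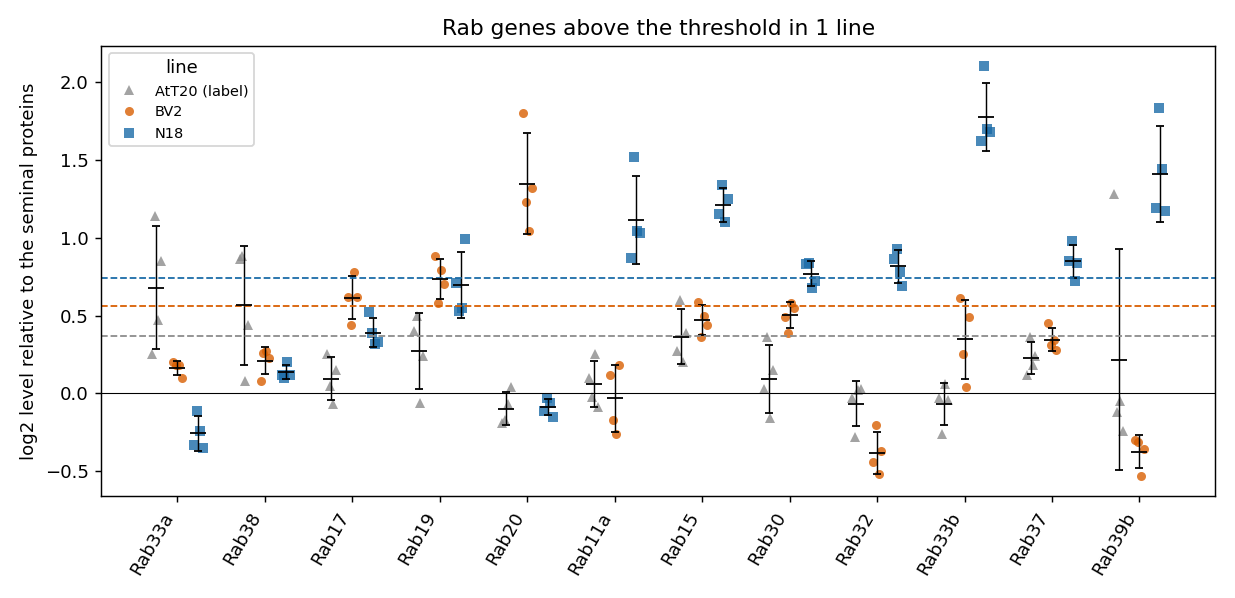
Levels of the 12 Rab genes above the threshold in 1 line only, on the log2 scale relative to the seminal proteins, where points are plates, bars the mean and SD of 4 plates, and dashed lines the threshold of each line in its color. On this scale the BV2 plates of Rab20 and the N18 plates of Rab33b and Rab11a lie apart from all other plates, whereas the N18 mean of Rab30, 0.77, is just above the threshold of 0.74.

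The comparison of N18 with BV2, both of which carry the markers of their label, asked which Rab genes differed between the neuroblastoma and the microglial line. After quantile normalization, 22 of the 51 genes were higher in N18 (43.1%, where 19% of all genes and targets were) and 9 were lower (17.6%, against 21.9% of all), at an adjusted p under 0.05 in limma with Benjamini-Hochberg adjustment over all genes and targets. The median difference was 0.21 over the Rab genes and -0.06 over all genes and targets, on the log2 scale. The split depended on the scale: 30 were higher and 5 lower without normalization, where 30.7% and 7.58% of all were, and 32 were higher and 5 lower relative to the seminal proteins, where 38.8% and 13.1% of all were. The median over all genes and targets moved to 0.15 and 0.18 on these scales. All 31 genes called after quantile normalization had the same sign on the other 2 scales, and in 28 of them all 3 probes had that sign.

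**Figure D3:**
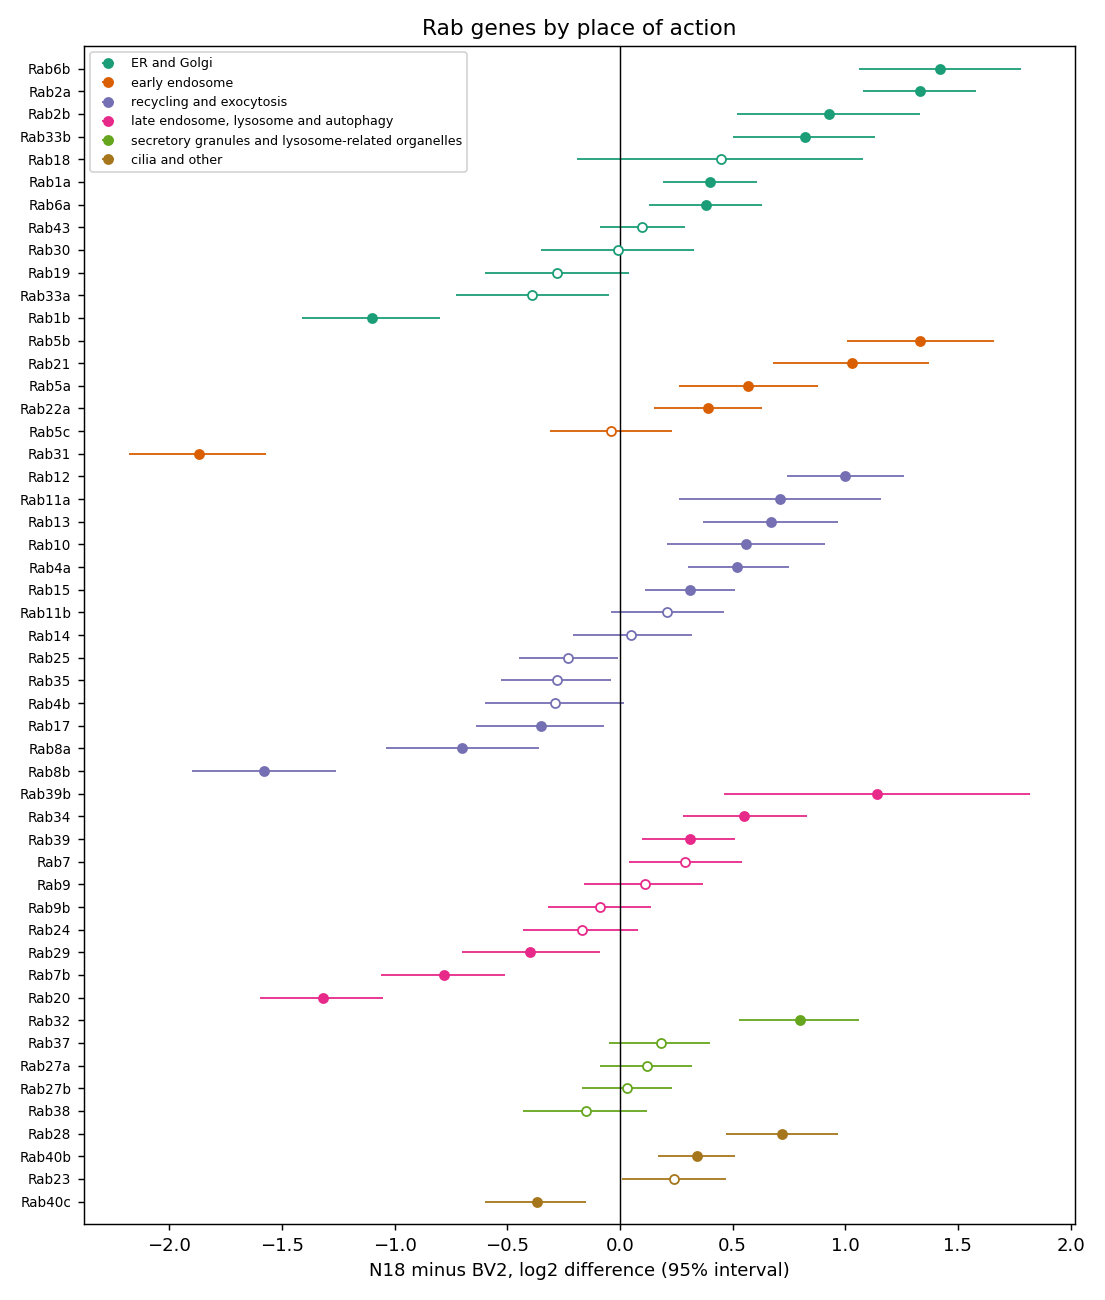
Difference in log2 level between N18 and BV2 for each of the 51 Rab genes, by place of action, with the 95% interval of the limma fit; filled points have an adjusted p under 0.05. In the groups of the ER and Golgi, the early endosome, and recycling and exocytosis, genes with the highest and the lowest differences stand side by side, such as Rab5b at 1.33 and Rab31 at -1.87.

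Of the 31 genes, 10 differed by at least 1 on the log2 scale, 6 of them higher in N18 (5.48% of all genes and targets were) and 4 lower (4.35% of all). The largest difference was that of Rab31, a Rab of the trans-Golgi network and early endosome that is also found on phagosomes. Its quantile-normalized log2 intensities were 14.24, 14.16, 14.20 and 14.23 in BV2, 12.34, 12.22, 12.27 and 12.53 in N18, and 10.74, 10.28, 10.26 and 10.89 in AtT20. The 3 lines did not overlap, and the level fell by 1.87 from BV2 to N18 (SE 0.14, adjusted p = 1.72e-08 in limma), to which its 3 probes contributed alike, with differences from -1.9 to -1.76. The stretch upstream of its start in RefSeq (GRCm38.p6, chr17:65772753-65773002, minus strand, 5′ to 3′) is shown as that of the gene with the largest fall.

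Rab31: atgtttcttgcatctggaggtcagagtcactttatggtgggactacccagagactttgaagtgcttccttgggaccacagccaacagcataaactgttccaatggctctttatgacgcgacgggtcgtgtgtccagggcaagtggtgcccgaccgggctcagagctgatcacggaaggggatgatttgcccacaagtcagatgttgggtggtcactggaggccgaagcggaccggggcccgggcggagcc

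Rab6b, the isoform of the Golgi Rab Rab6a that is enriched in brain, had the largest difference in the other direction. It was at 12.57, 12.64, 13.01 and 13.21 in N18 and at 11.36, 11.58, 11.61 and 11.22 in BV2, with no overlap and a difference of 1.42 (SE 0.17, adjusted p = 3.83e-06 in limma). In AtT20 it was at 12.83, 13.50, 13.40 and 13.33, a level that came from 1 of its 3 probes. Rab6a, its broadly expressed relative, was higher in N18 by 0.38 (adjusted p = 0.0178 in limma). The same stretch of Rab6b (chr9:103111824-103112073, plus strand) is shown for contrast, as that of the gene with the largest rise, and it has a GC content of 80.8% against 57.6% for Rab31 and a median of 52.4% over the windows of all genes.

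Rab6b: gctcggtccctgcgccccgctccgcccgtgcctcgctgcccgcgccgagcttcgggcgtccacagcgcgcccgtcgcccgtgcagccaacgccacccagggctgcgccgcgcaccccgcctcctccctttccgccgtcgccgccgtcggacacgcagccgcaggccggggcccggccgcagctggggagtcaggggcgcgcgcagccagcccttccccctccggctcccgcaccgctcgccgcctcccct

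Of 12 Rab genes of the ER and Golgi, 6 were higher in N18, 1 was lower and 5 did not pass the test. Rab2a, which acts between ER and Golgi, was at 12.65, 12.86, 12.87 and 12.93 in N18 and at 11.59, 11.51, 11.38 and 11.51 in BV2, a difference of 1.33 (SE 0.12, adjusted p = 9.44e-08 in limma) without overlap. Its relative Rab2b differed by 0.93 (adjusted p = 0.000853), Rab33b by 0.82 (adjusted p = 0.000322) and Rab1a by 0.4 (adjusted p = 0.00379). Rab1b, which with Rab1a directs ER-to-Golgi transport, went the other way. It was at 13.86, 13.68, 13.71 and 13.71 in BV2 and at 12.63, 12.66, 12.50 and 12.77 in N18, a fall of 1.1 (SE 0.14, adjusted p = 9.8e-06 in limma). Its call was lost without normalization (a difference of -0.49, adjusted p = 0.0841) and relative to the seminal proteins (a difference of -0.46, adjusted p = 0.175). Rab18, of the ER and lipid droplets, did not pass the test (0.45, adjusted p = 0.257). It passed without normalization (1.08, adjusted p = 2.74e-06), on the scale of the seminal proteins (1.11, adjusted p = 0.000316) and with the 8 arrays of N18 and BV2 alone (0.55, adjusted p = 0.0016). It also passed without AtT20 plate 1, which enters the fit through the shared spread (0.47, adjusted p = 0.00495).

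In the early endosome, 4 of 6 genes were higher in N18, Rab31 was lower and Rab5c did not pass the test. The 3 Rab5 isoforms, which drive fusion of early endosomes, differed in pattern. Rab5b was at 13.03, 13.64, 13.68 and 13.52 in N18 and at 12.24, 12.07, 12.06 and 12.18 in BV2, a difference of 1.33 (SE 0.15, adjusted p = 2.54e-06 in limma). Rab5a was higher by 0.57 (adjusted p = 0.00489), and Rab5c had overlapping plates and a difference of -0.04 with a 95% interval from -0.31 to 0.23. On the other 2 scales Rab5c passed the test as higher in N18, at 0.57 (adjusted p = 0.0342 in limma) without normalization and 0.6 (adjusted p = 0.0343) relative to the seminal proteins. Rab22a, the closest relative of Rab31, was higher in N18 by 0.39 (adjusted p = 0.0118 in limma), so these relatives had opposite signs.

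Rab21, which acts in the uptake of integrins, was at 13.52, 13.68, 13.58 and 13.46 in N18 and at 12.52, 12.52, 12.41 and 12.66 in BV2, a difference of 1.03 (SE 0.16, adjusted p = 8.35e-05 in limma). No plates overlapped. Its upstream stretch (chr10:115315592-115315841, minus strand) is shown because it holds the TCACGTG core of the site known for MiT/TFE factors, the regulators of lysosomal genes, in capitals from 31 to 25 bases before the start.

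Rab21: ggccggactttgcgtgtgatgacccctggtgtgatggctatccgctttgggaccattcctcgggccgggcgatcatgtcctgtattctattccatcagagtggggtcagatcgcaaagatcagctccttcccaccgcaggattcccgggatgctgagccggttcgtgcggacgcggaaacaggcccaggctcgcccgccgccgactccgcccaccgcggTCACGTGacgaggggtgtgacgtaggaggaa

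Windows in RefSeq that reach from shortly upstream to just past the start were found for 43 of the 51 genes. TCACGTG, searched on both strands, was in 4 of the 54 windows of these genes (Rab5a, Rab21, Rab23 and Rab24) and in 3.8% of 32851 windows of all genes. GAGGAAGT, the core of the site known for the myeloid factor PU.1, was in 2 of the 54 (Rab2b and Rab32) and in 3.2% of all windows. It was not found in the window of Rab31.

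Of 14 genes of recycling and exocytosis, 6 were higher in N18, 3 were lower and 5 did not pass the test. Rab12, which moves the transferrin receptor to lysosomes, was at 11.97, 12.13, 12.11 and 12.08 in N18 and at 11.06, 11.10, 10.93 and 11.19 in BV2, a difference of 1.0 (SE 0.12, adjusted p = 4.9e-06 in limma). Rab11a (0.71, adjusted p = 0.0124), Rab13 (0.67, adjusted p = 0.00107), Rab10 (0.56, adjusted p = 0.0119), Rab4a (0.52, adjusted p = 0.000771) and Rab15 (0.31, adjusted p = 0.016) were the other 5. Rab11a is a Rab of slow and Rab4a of fast recycling. Their relatives Rab11b (0.21, adjusted p = 0.17 in limma) and Rab4b (-0.29, adjusted p = 0.123) did not pass the test. Where BV2 was below its threshold, the fold is a bound from that threshold, and Rab11a was at least 1.1-fold, Rab13 at least 1.2-fold and Rab15 at least 1.1-fold higher in N18.

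Both Rab8 genes, which direct vesicles to the plasma membrane and the cilium, were lower in N18. Rab8b was at 12.69, 12.33, 12.43 and 12.69 in BV2 and at 10.93, 10.99, 10.97 and 10.94 in N18, a fall of 1.58 (SE 0.15, adjusted p = 2.71e-07 in limma) with all 3 probes in the same direction. Rab8a fell by 0.7 (SE 0.16, adjusted p = 0.00203), but its call was lost without normalization (-0.37, adjusted p = 0.159) and on the scale of the seminal proteins (-0.34, adjusted p = 0.113), and the median of its probes gave 0.07. Rab17 fell by 0.35 (adjusted p = 0.0476), a call that was lost on both of these scales (adjusted p = 0.315 and 0.0556) and in every fit without 1 of the BV2 or N18 plates.

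**Figure D4:**
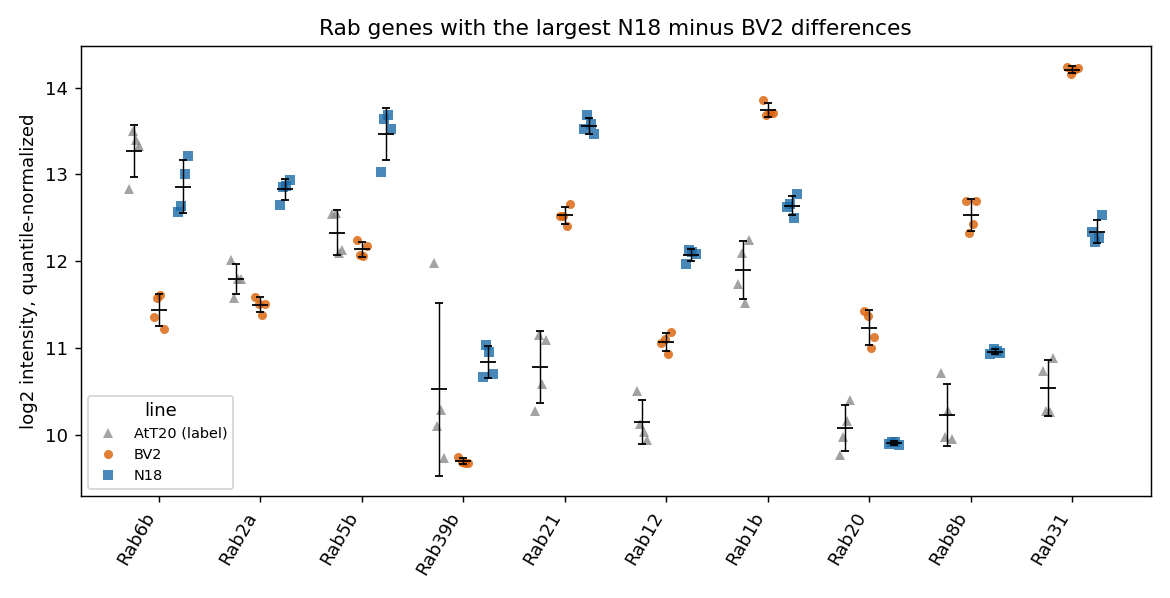
Quantile-normalized log2 intensity of the 10 Rab genes that differed by at least 1 between N18 and BV2; points are plates and bars the mean and SD of 4 plates. In each gene the 4 N18 plates lie apart from the 4 BV2 plates, and in Rab39b AtT20 plate 1 lies at 11.98 above the other 3 AtT20 plates.

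Genes of the late endosome, lysosome and autophagy were split, with 3 higher in N18, 3 lower and 4 not passing the test. Rab39b was at 10.67, 11.04, 10.96 and 10.70 in N18 and at 9.75, 9.69, 9.68 and 9.68 in BV2, a difference of 1.14 (SE 0.32, adjusted p = 0.00906 in limma), or at least 1.2-fold. The error takes in the spread of AtT20, where plate 1 was at 11.98 and the others at 10.10, 10.29 and 9.73. With the 8 arrays of N18 and BV2 alone the difference was 1.53 (adjusted p = 1.35e-08). Rab34, which positions lysosomes, was higher by 0.55 (adjusted p = 0.0026), and Rab39 by 0.31 (adjusted p = 0.0171), though Rab39 was below the threshold in both lines and lost its call without normalization (0.35, adjusted p = 0.127).

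Rab20 had the largest fall of this group from BV2 to N18. Its quantile-normalized mean was 11.23 ± 0.20 in BV2 (SD, n = 4), and its values were 9.90, 9.92, 9.92 and 9.88 in N18, a fall of 1.32 (SE 0.13, adjusted p = 3.06e-07 in limma), or at least 1.5-fold against the N18 threshold. Rab7b, which acts between late endosomes and the Golgi and is known from monocytes, fell by 0.78 (adjusted p = 0.000136) and Rab29, a Rab linked to the kinase Lrrk2, by 0.4 (adjusted p = 0.0379). The call of Rab29 was lost without normalization (-0.18, adjusted p = 0.53) and relative to the seminal proteins (-0.15, adjusted p = 0.344). Rab7, the general Rab of late endosomes and a relative of Rab7b, had a difference of 0.29 (adjusted p = 0.0626) and was higher in N18 on every plate. It passed the test on the other 2 scales, at 0.87 (adjusted p = 0.000605) without normalization and 0.9 (adjusted p = 0.0158) relative to the seminal proteins.

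Among the 5 genes of secretory granules and lysosome-related organelles, Rab32 was higher in N18 by 0.8 (SE 0.12, adjusted p = 7.15e-05 in limma) and the other 4 did not pass the test. Rab27b, with Rab27a a Rab of granule docking, differed by 0.03 (95% interval -0.17 to 0.23), Rab37 by 0.18 and Rab38 by -0.15. Rab37 passed the test as higher in N18 without normalization (0.48, adjusted p = 0.0369) and relative to the seminal proteins (0.51, adjusted p = 0.00012). Of the remaining 4 genes, Rab28 was higher in N18 by 0.72 (adjusted p = 0.000116) and Rab40b, one of the Rabs with a SOCS box, by 0.34 (adjusted p = 0.00222), though Rab40b was below the threshold in both lines. Rab40c, another of these, fell by 0.37 (adjusted p = 0.00921), and its call was lost without normalization (-0.07, adjusted p = 0.824) and relative to the seminal proteins (-0.04, adjusted p = 0.808). Rab23 had a difference of 0.24 (adjusted p = 0.0935). It passed without normalization (0.81, adjusted p = 0.000805) and relative to the seminal proteins (0.84, adjusted p = 0.000548).

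After quantile normalization some Rabs of the basic routes had similar values in both lines. Among the genes above the threshold in all lines, Rab14, of the trans-Golgi network and endosomes, had the smallest difference. It was at 13.08, 13.05, 13.02 and 13.28 in BV2 and at 13.09, 13.20, 13.32 and 13.03 in N18, and the interval of the difference of 0.05 ran from -0.21 to 0.32. Rab27a ranged from 10.96 to 11.07 in BV2 and was at 11.10, 11.13, 11.10 and 11.14 in N18 (0.12, from -0.09 to 0.32). Rab24, linked to autophagy, was at 13.15, 13.44, 13.29 and 13.28 in BV2 and at 13.13, 13.14, 13.17 and 13.02 in N18 (-0.17, from -0.43 to 0.08). Rab11b was at 11.80, 11.93, 11.59 and 11.64 in BV2 and at 12.08, 11.92, 11.97 and 11.84 in N18 (0.21, from -0.04 to 0.46). These intervals leave room for differences of up to 0.46 after quantile normalization, and relative to the seminal proteins the 4 differences were 0.69, 0.63, 0.49 and 0.88. On that scale Rab27a and Rab11b passed the test as higher in N18 (adjusted p = 0.00108 and 0.00145 in limma). Rab14 and Rab24 did not (adjusted p = 0.0509 and 0.183). Without normalization Rab14 (0.66, adjusted p = 0.0146), Rab27a (0.6, adjusted p = 0.0125) and Rab11b (0.85, adjusted p = 0.000659) passed, and Rab24 (0.46, adjusted p = 0.104) did not.

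A single plate decided some of the smaller calls. Besides Rab17, that of Rab29 was lost in 7 of the 8 fits without a BV2 or N18 plate (adjusted p from 0.0588 to 0.138), that of Rab6a without BV2 plate 2 or 3 or N18 plate 2 or 3 (from 0.0546 to 0.0561), that of Rab15 without BV2 plate 4 (0.0502) and that of Rab39 without BV2 plate 4 (0.0532) or N18 plate 2 (0.0599). Calls were gained by Rab7 without AtT20 plate 1 or 3 (adjusted p = 0.0317 and 0.036), by Rab19 without AtT20 plate 3 (0.0324), by Rab25 without AtT20 plate 3 or 4 (0.0406 and 0.0386), by Rab33a without AtT20 plate 1 or 4 (0.000348 and 0.0499) and by Rab35 without BV2 plate 3 (0.0218). The 10 genes with a difference of at least 1 kept their call in every fit without a plate. Counted by plates that did not overlap, 27 genes were higher in N18 and 11 lower, where 23.5% and 31.9% of all genes and targets were. With the 8 arrays of the pair alone, 26 genes were higher and 15 lower, where 25.8% and 36.1% of all genes and targets were.

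Comparisons with AtT20 share its 4 plates and are given side by side. Between BV2 and AtT20, 19 Rab genes were higher in BV2 (26.6% of all genes and targets were) and 21 lower (47% of all). Without normalization these counts were 10 and 29 (11.7% and 74.7% of all), and relative to the seminal proteins 33 and 10 (50.4% and 17.6% of all). Of the 40 genes called after quantile normalization, 27 had the same sign on the 3 scales, 13 of them higher and 14 lower. Between N18 and AtT20, 24 were higher in N18 (27.8% of all) and 21 lower (48.6% of all), without normalization 22 and 21 (19.9% and 63.1% of all), and relative to the seminal proteins 40 and 4 (60.7% and 16.3% of all). Of the 45, 30 had the same sign on the 3 scales, 23 higher and 7 lower. The genes named next were chosen after their values were seen.

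The AtT20 mean was below the threshold for the next 5 genes, Rab31, Rab5c, Rab21, Rab10 and Rab8b, so each fold is given as the lowest bound over the 3 scales. By single plates, 2 AtT20 plates of Rab10 and 1 of Rab21 were above the threshold of the plate. The AtT20 mean of Rab10 was 0.335 against a threshold of 0.366, and it passed when AtT20 plate 3 or 4 was left out. Among the Rabs of the early endosome, Rab31 was higher in BV2 than in AtT20 by 3.67 (SE 0.14, adjusted p = 2.09e-12 in limma), at least 5.9-fold, and higher in N18 than in AtT20 by 1.79 (adjusted p = 8.95e-09), at least 2.0-fold. Rab5c was at 10.31, 10.05, 10.10 and 10.00 in AtT20, at 12.95, 12.64, 12.67 and 12.97 in BV2 and at 12.69, 12.59, 12.78 and 13.01 in N18, differences of 2.69 (adjusted p = 1.99e-11) and 2.65 (adjusted p = 2.27e-11), or at least 2.3-fold and at least 2.8-fold. Rab21 was at 10.28, 11.15, 10.59 and 11.09 in AtT20 and differed from it by 1.75 in BV2 and by 2.78 in N18 (adjusted p = 6.81e-08 and 2.32e-10), or at least 1.9-fold and at least 4.8-fold. No AtT20 plate of these 3 genes reached a plate of either other line.

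Rabs of exocytosis also differed. Rab10, which delivers vesicles to the surface, was at 11.53, 11.09, 10.61 and 10.92 in AtT20, at 13.42, 13.12, 13.00 and 13.39 in BV2 and at 13.83, 13.90, 13.73 and 13.71 in N18. It was higher in BV2 by 2.2 (adjusted p = 4.52e-09) and in N18 by 2.75 (adjusted p = 2.69e-10 in limma), or at least 3.2-fold and at least 5.7-fold. Rab8b was at 10.71, 9.97, 10.28 and 9.95 in AtT20 and was higher in BV2 by 2.31 (adjusted p = 9.31e-10), at least 2.0-fold.

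The falls of Rab4a and Rab6b from AtT20 rested on 1 probe each. Rab4a was at 14.33, 14.22, 14.21 and 14.16 in AtT20, and fell by 2.32 to BV2 and by 1.8 to N18 (adjusted p = 1.23e-11 and 2.33e-10 in limma). The call against N18 was lost on the scale of the seminal proteins (a difference of -0.12, adjusted p = 0.673) and with the mean of the log2 probes (-0.26, adjusted p = 0.0603). Of its 3 probes, 1 stood at 15.67 in AtT20 against 12.17 in BV2 and 12.46 in N18, and the other 2 were higher in BV2 and in N18 than in AtT20. Rab6b was lower in BV2 than in AtT20 by 1.82 with the mean of its probes, again through 1 probe, at 14.73 against 12.16, and with the median of its probes it was higher in BV2 by 0.96.

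Rab33a was at 10.94, 11.79, 11.83 and 11.88 in AtT20, at 10.15, 10.24, 10.22 and 10.09 in BV2 and at 9.75, 9.86, 9.78 and 9.75 in N18. It fell by 1.43 to BV2 and by 1.82 to N18 (adjusted p = 5.88e-07 and 2.89e-08 in limma), and all 3 probes had this sign in both comparisons. Rab38 was at 11.63, 11.50, 10.94 and 11.27 in AtT20, and fell by 1.12 to BV2 and by 1.27 to N18 (adjusted p = 7.5e-07 and 1.43e-07), with 2 of 3 probes of this sign. Rab13 was at 12.12, 12.25, 11.55 and 11.68 in AtT20 and fell by 1.77 to BV2 (adjusted p = 9.38e-09), with 2 of 3 probes of this sign, and its difference of -1.1 between N18 and AtT20 was 0.23 relative to the seminal proteins. In each of these 3 genes 1 probe gave most of the fall from AtT20 to BV2. That probe differed by -2.24 for Rab33a, where the others differed by -0.34 and -0.65. It differed by -2.28 for Rab38 (the others by -0.32 and 0.75) and by -3.09 for Rab13 (the others by -0.76 and 0.53). After quantile normalization no AtT20 plate of Rab33a, Rab38 or Rab13 overlapped with BV2. Rab33a and Rab38 were below the threshold in BV2 and N18, and Rab13 in BV2. The lowest bounds over the 3 scales were then 1.0-fold for Rab33a and Rab38 and 1.3-fold for Rab13 against BV2, and no bound above 1 was had for Rab33a and Rab38 against N18.

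The Rab cycle also depends on regulators and effectors, of which 141 genes from a list of 166 had a target. Between N18 and BV2, 50 of them were higher in N18 (35.5%) and 34 lower (24.1%), with a median difference of 0.09, beside 19% and 21.9% of all genes and targets. Of 6 genes of prenylation, GDI and the escort proteins (REP), 3 were higher and 1 lower. Gdi2, a broadly expressed GDI, differed by 0.77 (SE 0.19, adjusted p = 0.00303 in limma). Rabggtb, the catalytic subunit of the transferase that attaches the lipid tail, was higher by 0.48 (adjusted p = 0.0051), whereas Rabggta, its partner subunit, fell by 0.49 (adjusted p = 0.0224). Relative to the seminal proteins, however, the mean level of Rabggta was 1.72 in BV2 and 1.68 in N18, so its fall depended on the scale. Rabac1, a receptor for prenylated Rabs, was higher by 0.43 (adjusted p = 0.0037), and the escort proteins Chm and Chml had differences of -0.2 and 0.07 that did not pass the test.

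Of 43 exchange factors, 11 were higher in N18 and 13 lower, of 33 GTPase-activating proteins 13 and 6, and of 59 effectors 23 and 14. The largest rises were those of the effectors Rufy2 (1.31, adjusted p = 4.89e-06 in limma) and Rufy3 (1.23, adjusted p = 4.64e-06), the latter known from axons, and of Dennd2a, an exchange factor (1.22, adjusted p = 3.86e-06). The largest falls were those of Rinl, an exchange factor of the Rab5 group (a difference of -1.93, SE 0.35, adjusted p = 0.000267), Rilpl2, an effector of Rab8 and Rab10, and Ehbp1l1, an effector of Rab8. Rilpl2 and Ehbp1l1 were above the threshold in BV2 and below it in N18, with differences of -1.88 (adjusted p = 1.04e-07 in limma) and -1.6 (adjusted p = 6.34e-09).

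**Figure D5:**
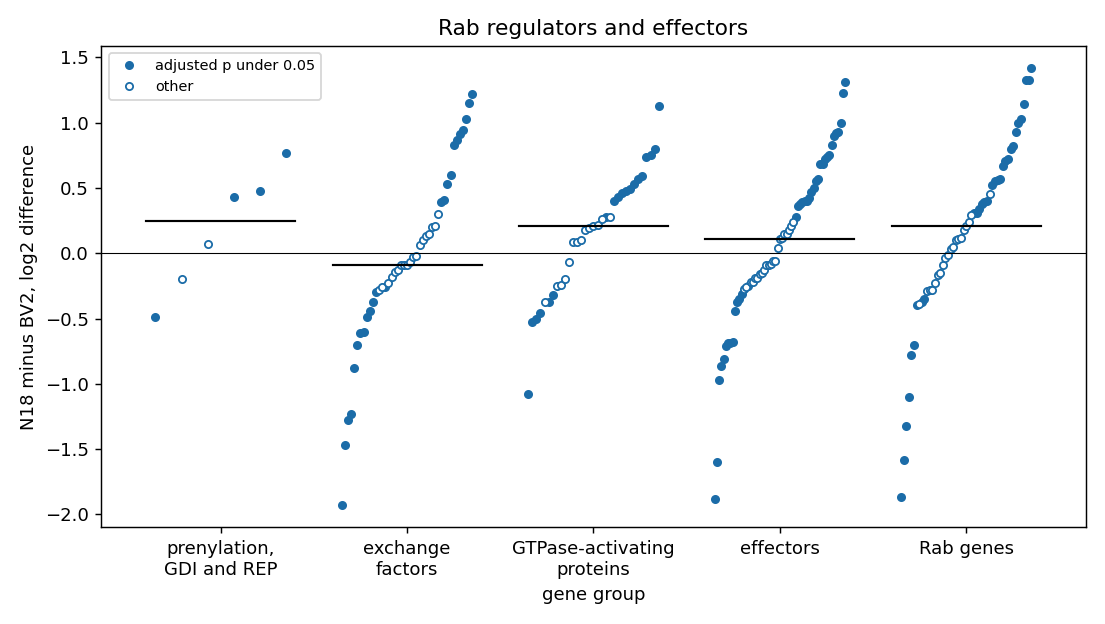
Differences in log2 level between N18 and BV2 for 141 regulators and effectors of Rabs, by kind, and for the 51 Rab genes; each point is a gene, filled where the adjusted p was under 0.05, and the line is the median of the kind. The highest point of the prenylation, GDI and REP group is Gdi2 at 0.77, and the lowest point of the exchange factors is Rinl at -1.93.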

How the data were processed

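RNA of 12 plates (4 each of AtT20, BV2 and N18) was measured on single-color 72k arrays of the MM8 design, and images were quantified with NimbleScan. As deposited, the values are log2 intensities, which the authors made from the Cy3 intensity of each of 72000 probes, and no background subtraction or normalization was seen in them. Symbols came from RefSeq transcript names, which matched 69.4% of 25631 targets. The 12 arrays were quantile-normalized at the probe level, and the level of a target was the log2 of the linear mean of its probes, with a mean over targets where a gene had several. Lines were compared with limma 3.58.1 (lmFit, eBayes with a trend) in R 4.3.3 on all 12 arrays, with Benjamini-Hochberg adjustment over 25128 genes and targets, at 0.05. Levels relative to the seminal proteins were taken from values without normalization. The threshold for expression follows the study: 2 SD of the 10 seminal proteins on each plate, averaged over the plates of a line and set against the mean level of a gene. A lower bound of a fold sets a line below its threshold to that threshold and is the lowest over 3 scales.

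The members and lists were chosen with earlier results of these data known. Values by plate are given for Rab genes called between N18 and BV2 with a difference of at least 1, for those above the threshold in 1 line and for the 4 of smallest difference among those above it in all 3 lines. Of the regulators, the 3 largest differences in each direction and every prenylation, GDI and REP gene of the list are named. A result for a single regulator is not reported here, and the counts of regulators leave it out. Alternatives to the fit were the pair of scales without quantile normalization, normexp (offset 50), averaging of log2 probes or their median, a filter on the threshold, the highest target, a replicate block, a minimum difference of 1, the 8 arrays of a pair and leaving out each plate. For the threshold they were olfactory receptor genes as controls, 3 SD, all 4 plates, at least 2 probes, and both ways of averaging. On simulated data for N18 against BV2 with 200 genes changed, 93.5% were recovered at a log2 difference of 1 and 32.5% at 0.5. False calls were 6% and 4.4% of the calls. The simulation gave a gene the same spread in every line, whereas the median SD of the Rab genes was 0.25 in AtT20, 0.11 in BV2 and 0.09 in N18. On the real arrays 40.9% of all genes and targets were called between N18 and BV2, so these shares need not hold there. The 4 arrays per line limit the precision. A slide holds 4 arrays, and since the sources used here do not say how plates were spread over slides, slide and line cannot be told apart. Promoter sequences are those of RefSeq, GRCm38.p6, and protein sequences were not used here. Tables and plots were made with Python 3.11.15, pandas 2.3.3, numpy 2.4.6 and matplotlib 3.10.9.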

Additional observations from a re-analysis of the deposited data

Results flagged for a closer look

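Single plates far from the other 3 of their line were found in 6 of 153 sets of 4 plates (51 Rab genes in 3 lines), by a test that chance alone sets off in about 1 of 20. On the quantile-normalized log2 scale, Rab28 was at 11.05 on AtT20 plate 2 against 11.25 to 11.28 on the others, and at 10.7 on BV2 plate 3 against 11.12 to 11.16. Rab33a was at 10.94 on AtT20 plate 1 against 11.79 to 11.88, and Rab5a was at 10.9 on AtT20 plate 4 against 10.41 to 10.49. Rab40b was at 9.57 on BV2 plate 2 against 9.66 to 9.67, and Rab35 was at 12.21 on N18 plate 3 against 12.15 to 12.16. Of the 6, 3 were on AtT20 plates, 2 on BV2 plates and 1 on an N18 plate.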

How the results depend on the processing

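The 10 Rab genes that differed by at least 1 between N18 and BV2 kept their direction under all alternatives, and Rab1b lost its call without normalization and relative to the seminal proteins. Under the requirement of a difference of at least 1, counts fell to 6 higher and 4 lower in N18 than BV2, to 11 and 6 in BV2 than AtT20 (12.5% and 15.7% of all genes and targets) and to 13 and 6 in N18 than AtT20 (13.2% and 18.2% of all). Genes lower in N18 than BV2 numbered 5 without normalization, 5 relative to the seminal proteins and 15 with the 8 arrays of the pair. Genes higher in BV2 than AtT20 numbered 10 without normalization and 33 relative to the seminal proteins, and lower ones 10 relative to the seminal proteins. Genes higher in N18 than AtT20 numbered 40 and lower ones 4 relative to the seminal proteins, and lower ones 12 with the median of probes. The AtT20 count above the threshold, 21, was 12 with the median of probes, 10 with olfactory receptor genes as controls, 12 on all 4 plates and 8 with at least 2 probes, and 5 of the 21 genes passed all 6 alternative rules, against 25 of 35 in BV2 and 28 of 40 in N18. The shares of all genes and targets under these rules are not given here. The causes were not tested.

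Signs turned in some genes not called between N18 and BV2 after quantile normalization. Without normalization and relative to the seminal proteins the differences were 0.46 and 0.49 for Rab24, 0.23 and 0.26 for Rab30, 0.32 and 0.35 for Rab35, 0.1 and 0.13 for Rab4b, and 0.57 and 0.6 for Rab5c. With the median of probes they were -0.12 for Rab23, -0.06 for Rab27a, -0.02 for Rab9 and 0.24 for Rab5c, and 0.07 for Rab8a, which had been called. With the mean of log2 probes they were 0.02 for Rab30 and 0.14 for Rab5c. Leaving out each plate gave -0.12 to 0.02 for Rab5c, -0.04 to 0.02 for Rab30 and 0.00 to 0.11 for Rab14. Against AtT20, the median of probes turned Rab4a to 0.02 in BV2 and 0.5 in N18, and Rab6b to 0.96 in BV2. Of all member results for N18 against BV2 under the alternatives, 981 kept direction and side of the threshold, 47 gained the call, 65 lost it and 23 turned.

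Leaving out each plate gave 20 to 24 genes higher and 7 to 11 lower in N18 than BV2. Replicate numbers did not pair the plates: deviations of same-numbered plates correlated at -0.11 to 0.32, over 0.1 in 3 of 12 pairs, and those of other plates at -0.49 to 0.36. With the replicate block the counts were 22 and 9 for N18 against BV2, 19 and 21 for BV2 against AtT20 and 24 and 20 for N18 against AtT20. Rab17 lost its call under the block (adjusted p = 0.0591) and Rab33a gained one (adjusted p = 0.0495). Signal over background limits the genes near the threshold.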
